A study of Homo sapiens with 24 samples.

Results

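The 37 genes described here are neuronal and neurosecretory genes, chosen by name: the transcriptional repressor REST, stathmins, synaptic vesicle and exocytosis proteins, granins, neurofilaments, axonal and microtubule proteins, 2 ion channels, and adhesion or signaling proteins. They were measured in HCT-116, an established human colorectal carcinoma cell line, with 46 probes out of 34127 non-control probes on the array, and they make up 37 of 27274 gene names. The cells were a single selected clone stably carrying a Tet repressor and a doxycycline-inducible DN-Tcf4, a Tcf4 that cannot bind beta-catenin and so represses Wnt-responsive transcription. All 4 groups carried both constructs. Untreated cells (Ctl), cells given 5 mM sodium butyrate (NaB), cells given 4 μg/ml doxycycline (Doxy) and cells given both agents (DoxyNaB) were each hybridised once in 6 experiments, giving 24 arrays, with a butyrate exposure of 17.5 hr. The methods describe the experiments as biological replicates.

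Butyrate is a short-chain fatty acid made by bacterial fermentation in the colon, and it inhibits histone deacetylases. Outside the nervous system many neuronal genes are kept silent by REST, which binds a DNA element called RE1 and recruits the CoREST and Sin3 complexes, each of which contains histone deacetylases. Granins and the vesicle proteins of the SNARE machinery are also used by the neuroendocrine cells of the gut, where they package hormones and release them by regulated exocytosis. The comparison of NaB with Ctl asks which of these genes respond to butyrate in a colon carcinoma cell, and that of DoxyNaB with Doxy asks the same while DN-Tcf4 can be induced.

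Start-site sequence shows what letters a nuclear factor could meet at these genes. RefSeq windows of 300 bases (250 before the start and 50 after it, GRCh38.p14) were matched for 22 of the 37 genes, in 35 windows, and searched on both strands for 4 short motifs. The CRE, TGACGTCA, to which CREB and ATF proteins bind, occurred in the windows of VGF and CHGA. It was found in 2 of the 35 windows and in 1.85% of all 35116 windows. The left arm of RE1, TTCAGCACC, occurred in the windows of CELSR3 and SCG3 and in 0.376% of all windows, and the right arm, GGACAG, in 31.4% of the 35 windows and in 20.6% of all windows. The GC box, GGGCGG, was present in 74.3% of the 35 windows and in 45.0% of all windows. Both RE1 arms in their canonical spacing of 2 bases were in 5 of all windows and in 0 of the 35, which says only that these letters were not in these windows. The sequences below are shown because VGF and CHGA were among the genes with the highest butyrate responses, and because CELSR3 and SCG3 held both RE1 arms. In CELSR3 the right arm, at -237, came before the left arm, at -148, so the arms were far apart and in reversed order. Capitals mark the CRE in the first pair and the RE1 arms in the second. They are written 5′ to 3′ on the strand of the gene, at chr7:101165570-101165819 (minus strand), chr14:92922900-92923149 (plus), chr3:48662887-48663136 (minus) and chr15:51681511-51681540 (plus).
VGF: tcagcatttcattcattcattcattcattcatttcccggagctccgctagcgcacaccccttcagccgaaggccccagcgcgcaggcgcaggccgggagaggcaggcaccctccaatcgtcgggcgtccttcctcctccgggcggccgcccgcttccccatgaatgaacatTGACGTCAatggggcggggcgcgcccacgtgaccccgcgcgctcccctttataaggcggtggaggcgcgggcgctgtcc
CHGA: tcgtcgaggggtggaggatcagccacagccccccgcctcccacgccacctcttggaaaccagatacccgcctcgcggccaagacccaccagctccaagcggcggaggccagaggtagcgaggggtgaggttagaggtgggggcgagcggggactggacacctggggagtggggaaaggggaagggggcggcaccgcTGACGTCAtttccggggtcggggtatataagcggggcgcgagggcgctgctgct
CELSR3: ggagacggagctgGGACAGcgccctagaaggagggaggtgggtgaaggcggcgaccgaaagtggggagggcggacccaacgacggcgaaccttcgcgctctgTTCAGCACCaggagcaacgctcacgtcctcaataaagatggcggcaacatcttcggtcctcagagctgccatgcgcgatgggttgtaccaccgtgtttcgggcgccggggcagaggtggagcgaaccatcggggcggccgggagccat
SCG3: TTCAGCACCcacagggcGGACAGcgctccc

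A level below is the log2 of the processed signal of a probe relative to the 75th percentile of its array, so that 0 is the signal of a fairly bright probe. Levels were compared between arrays for a probe and not between genes. A gene entered the test where its probe was well above background on every array of at least 1 treatment, and it was called at a fold over 2 with a limma adjusted p under 0.01. Changes are log2 differences, with the SD over the 6 experiments. Of the 37 genes, 14 were well above background on all 24 arrays, 9 more passed through the treatment in which they were bright, and 14 were not tested. Arrays of experiments 2 to 4, which shared a scan date, had 78.3 to 88.1% of spots well above background, and the other arrays 52.5 to 62.4%.

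Butyrate raised 7 of the 14 genes that were well above background throughout (VGF, MAP2, STX1A, CACNA1H, MAPT, CELSR3 and GDAP1), lowered 1 (STMN3) and left 6 without a call. Of all 12335 genes measured on every array, 15.5% were called higher and 11.9% lower by butyrate. The median change of the 14 genes was 1.08, against 0.07 for those 12335 genes. With doxycycline present, 9 of the same 14 were called higher and 1 lower, against 14.2% and 12.6% of genes, with a median of 1.17. VGF, MAP2 and STMN3 kept their calls under every scaling tried. Median scaling ended those of STX1A, MAPT, CACNA1H, CELSR3 and GDAP1 in both comparisons, and normexp background correction those of CACNA1H, CELSR3 and GDAP1 in NaB. Over all 15155 genes tested, 21.0% were higher and 11.5% lower in NaB, and 18.7% and 12.5% in DoxyNaB. The 9 genes that passed through a bright treatment included 7 called higher in both comparisons (SYT11, STMN2, CHGA, RUNDC3A, NCAM1, SYP and NELL2), and for these the filter itself favoured a difference, so they are described below without a count in support. In RNA from a whole culture, a higher level in every cell and a high level in a few cells cannot be told apart.

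**Figure D1:**
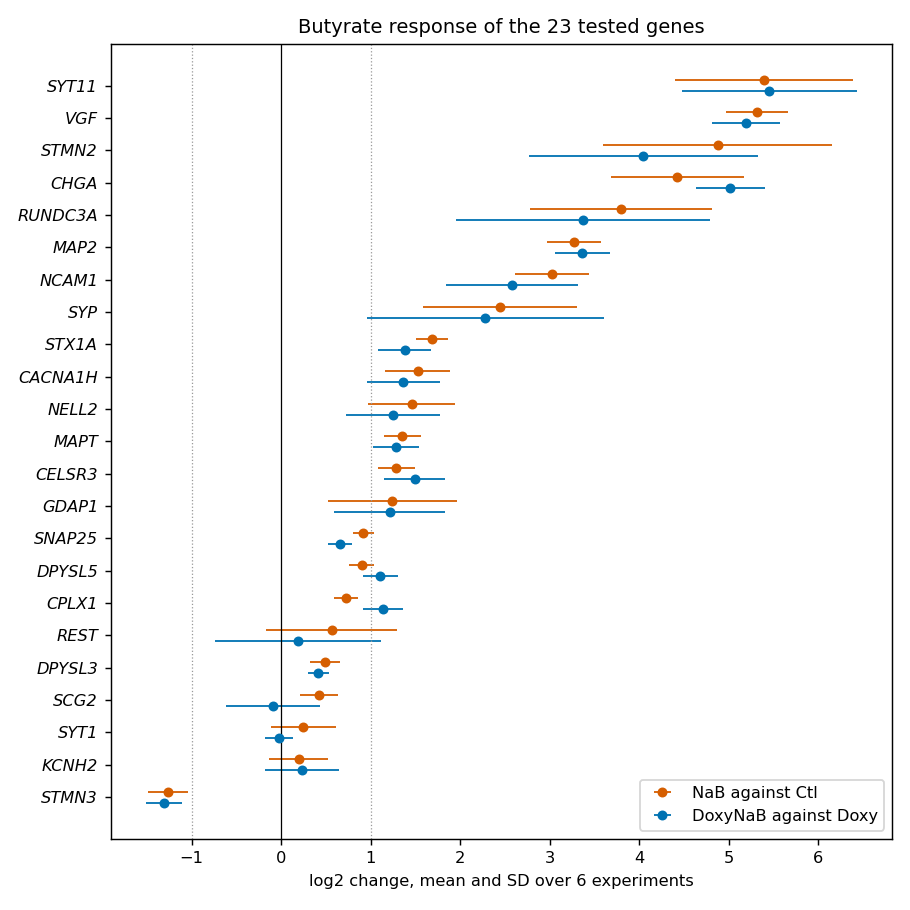
Log2 change of the 23 tested genes in NaB against Ctl and in DoxyNaB against Doxy (horizontal axis), with points for the mean and bars for the SD over 6 experiments; dotted lines mark a 2-fold change. SYT11 and VGF lie above 5 in both comparisons, STMN3 is below -1 in both, and CPLX1 and DPYSL5 pass the 2-fold line only with doxycycline.

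VGF, a neurosecretory protein that is cleaved into peptides and belongs with the granins, had the 6th highest change of the 12335 genes. Its probe lies at chr7:100592519-100592578 (NCBI36, minus strand). The Ctl levels ran from 1.00 to 1.66 with a median of 1.26, and the NaB levels from 6.33 to 7.08 with a median of 6.56. In Doxy they ran from 1.28 to 2.17 (median 1.51) and in DoxyNaB from 6.41 to 7.14 (median 6.73). The butyrate and butyrate-free levels did not overlap on any array. VGF rose by 5.31 ± 0.35 in NaB, or 39.7-fold (adjusted p = 9.55e-16), and by 5.20 ± 0.38 in DoxyNaB (adjusted p = 1.1e-15).

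CHGA encodes chromogranin A, the granule protein used as the standard marker of neuroendocrine cells. Without butyrate its probe was well above background on no array (0 of 6 in Ctl, 0 of 6 in Doxy), and with butyrate on every array (6 of 6 in NaB, 6 of 6 in DoxyNaB). The NaB levels lay between -3.05 and -1.95 (median -2.17), and the DoxyNaB levels between -2.55 and -2.09 (median -2.14). The measured means were -6.79 in Ctl and -7.24 in Doxy. Set against the lowest signal that was well above background on each dim array, CHGA was 7.85-fold higher in NaB and 10.5-fold higher in DoxyNaB. The limma test used the measured levels instead (adjusted p = 7.79e-11 in NaB and 1.35e-11 in DoxyNaB). The size depended on the processing. After normexp correction the log2 differences in CHGA were 1.15 and 1.75, still called, and after quantile normalization 2.75 and 3.92. Its probe is at chr14:92471298-92471357 (NCBI36, plus strand).

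Of the other granins named, SCG2 alone was tested, and it was not called. SCG2, secretogranin II, was above background throughout, with Ctl levels from -1.16 to -0.41 (median -0.88) and NaB levels from -1.08 to 0.20 (median -0.40). These ranges overlapped. Its change was 0.43 ± 0.21 in NaB (adjusted p = 0.0126) and -0.09 ± 0.52 in DoxyNaB (adjusted p = 0.572). CHGB, chromogranin B, was above background on 12 of 12 arrays of experiments 2 to 4 and 0 of 12 of the others, whatever the treatment. SCG3, which binds chromogranin A in granules and whose window held both RE1 arms, was above background on 5 of 24 arrays, at most 2 in a treatment, and SCG5, a chaperone of prohormone convertase 2, on 4 Ctl, 1 NaB, 4 Doxy and 3 DoxyNaB arrays. The SCG3 level was higher in NaB than in Ctl in 6 of 6 experiments, with overlapping ranges of -7.26 to -4.62 in Ctl and -5.52 to -4.02 in NaB. CHGB, SCG3 and SCG5 were not tested.

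**Figure D2:**
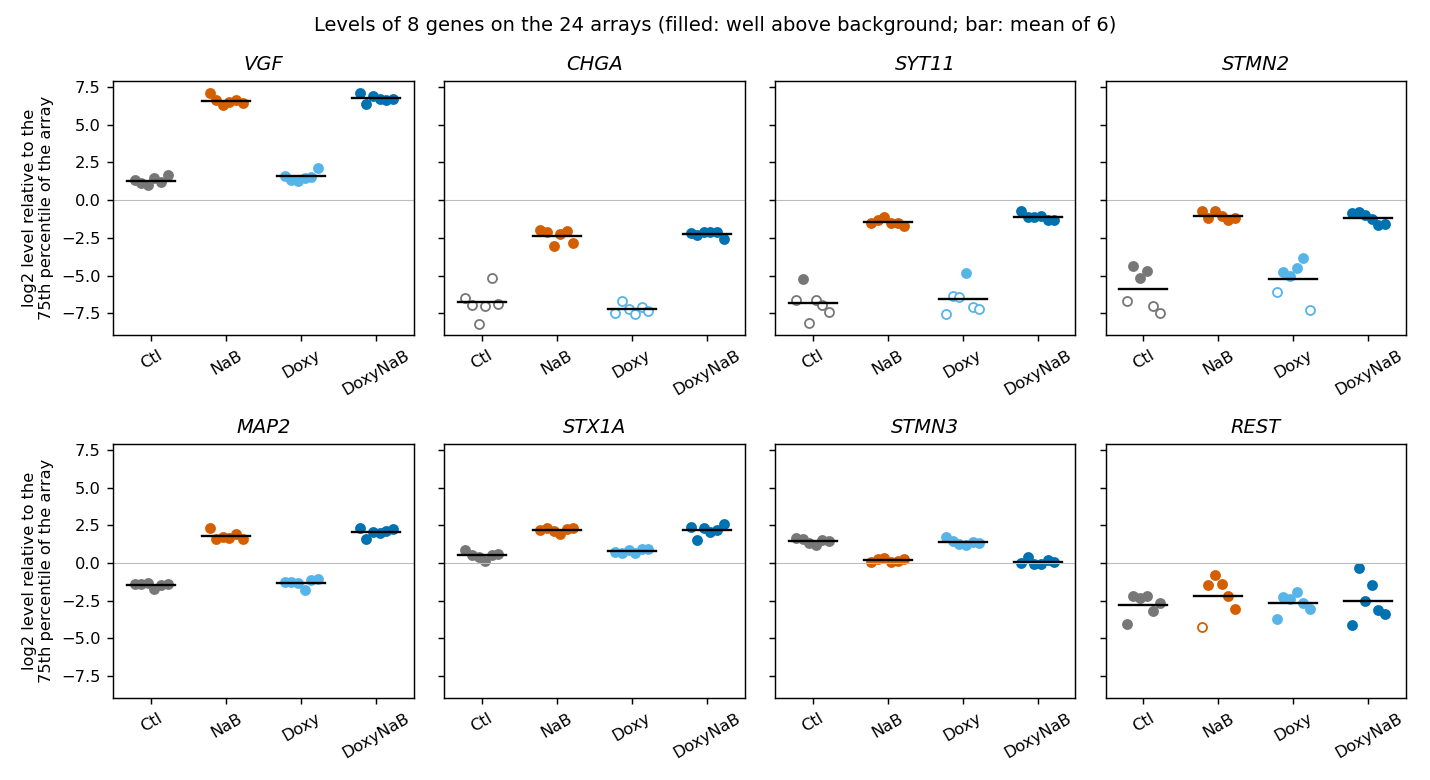
Log2 level (vertical axis) of 8 genes on each of the 24 arrays by treatment, in the order of experiments 1 to 6 from left to right within a treatment, with filled points for arrays on which the probe was well above background and bars for means. VGF, CHGA, SYT11, STMN2, MAP2 and STX1A are higher in both butyrate groups with no overlap, STMN3 is lower, and the REST levels overlap between treatments.

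Among vesicle release genes, STX1A and SYT11 were called higher by butyrate in both comparisons. STX1A, syntaxin 1A, is the plasma membrane SNARE of neuronal exocytosis. Its levels were 0.13 to 0.84 in Ctl (median 0.53), 1.95 to 2.35 in NaB (median 2.21), 0.66 to 0.92 in Doxy (median 0.79) and 1.52 to 2.56 in DoxyNaB (median 2.26). The butyrate arrays were all above the butyrate-free ones. The change was 1.68 ± 0.17 in NaB (adjusted p = 3.2e-10) and 1.38 ± 0.30 in DoxyNaB (adjusted p = 5.23e-09), and a second STX1A probe gave 1.69 ± 0.44 and 1.42 ± 0.20. SYT11, a synaptotagmin that does not bind calcium, was well above background on 1 of 6 arrays in Ctl and in Doxy, and on all butyrate arrays. Its Ctl levels were -8.13 to -5.22 (median -6.80) and its NaB levels -1.72 to -1.13 (median -1.497). It was higher by 5.39 ± 1.00 in NaB (adjusted p = 2.01e-10) and by 5.45 ± 0.98 in DoxyNaB (adjusted p = 1.72e-10). These sizes rest on butyrate-free values that were mostly not above background, and after normexp correction the SYT11 differences were 1.85 and 2.35, still called.

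The values for SNAP25 and CPLX1 were smaller. SNAP25, the SNARE partner of syntaxin 1A, was -1.94 to -1.55 in Ctl (median -1.69) and -1.02 to -0.46 in NaB (median -0.88). These did not overlap, and the difference of 0.92 ± 0.12 (adjusted p = 3.11e-10) stayed below 2-fold. With doxycycline the SNAP25 difference was 0.65 ± 0.13 (adjusted p = 3.41e-08). Both SNAP25 values depended on the scaling. In NaB and DoxyNaB they were 0.55 and 0.56 after normexp correction and 0.565 and 0.05 after quantile normalization. Median scaling gave 0.17 and 0.09 for SNAP25. CPLX1, complexin 1, which binds the assembled SNAREs and controls their fusion step, differed by 0.72 ± 0.13 in NaB (adjusted p = 1.76e-07) and rose by 1.14 ± 0.22 in DoxyNaB (adjusted p = 3.71e-10), where it passed the 2-fold threshold, though not after normexp correction (0.92), quantile normalization (0.96) or median scaling (0.58). The difference between those 2 responses was -0.41 ± 0.20, the same way in 6 of 6 experiments, and did not pass the interaction test (adjusted p = 0.0688). SYT1, the calcium sensor of fast release, changed by 0.25 ± 0.36 (adjusted p = 0.0871) and -0.03 ± 0.16 (adjusted p = 0.853).

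SYP, synaptophysin, a synaptic vesicle membrane protein, was well above background on 3 Ctl, 4 NaB, 4 Doxy and 6 DoxyNaB arrays. Its levels spread widely, from -7.23 to -3.59 in Ctl and from -4.99 to -0.85 in NaB, and overlapped, although NaB was higher in 6 of 6 experiments. The change was 2.45 ± 0.86 (adjusted p = 8.53e-05) and 2.28 ± 1.33 with doxycycline (adjusted p = 1.77e-04). It was not called after normexp background correction (0.71 and 1.13) or without the experiment as a block. SYT4 was well above background on 0 of 24 arrays. SYT5 was above background on 2 Ctl, 5 NaB, 3 Doxy and 4 DoxyNaB arrays, and CPLX2 on 12 of 12 arrays of experiments 2 to 4 and 1 of 12 of the others. These 3 genes were not tested.

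The stathmins, which bind tubulin and destabilise microtubules, divided. STMN2, the neuron-specific SCG10, had Ctl levels of -7.46 to -4.36 (median -5.93) and NaB levels of -1.33 to -0.73 (median -1.09). Doxy gave -7.26 to -3.82 (median -4.88) and DoxyNaB -1.62 to -0.79 (median -1.13). Butyrate levels were above all others, with 3 Ctl and 4 Doxy arrays well above background. STMN2 was higher by 4.88 ± 1.28 in NaB (adjusted p = 1.22e-08) and by 4.05 ± 1.28 in DoxyNaB (adjusted p = 1.55e-07). After normexp correction these STMN2 differences were 2.00 and 2.14, still called. STMN3 went the other way, from 1.18 to 1.67 in Ctl (median 1.48) to between 0.03 and 0.31 in NaB (median 0.21), with no overlap. It fell by 1.27 ± 0.22 (adjusted p = 9.49e-11) and by 1.31 ± 0.20 with doxycycline (adjusted p = 5.92e-11), under every scaling tried. STMN4 was well above background on 0 Ctl and 0 Doxy arrays, on 2 NaB arrays and on 4 DoxyNaB arrays. Its levels were -7.96 to -5.85 in Ctl and -5.59 to -3.80 in NaB. STMN4 was not tested.

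Of the axonal and microtubule proteins, MAP2 and MAPT were called higher in both comparisons. MAP2, the dendritic microtubule-associated protein, had Ctl levels of -1.76 to -1.36 (median -1.42), NaB levels of 1.58 to 2.33 (median 1.69), Doxy levels of -1.82 to -1.08 (median -1.27) and DoxyNaB levels of 1.59 to 2.32 (median 2.08). No butyrate array overlapped with a butyrate-free one. MAP2 rose by 3.27 ± 0.30 in NaB, 9.65-fold (adjusted p = 4.15e-14), and by 3.36 ± 0.30 in DoxyNaB (adjusted p = 2.61e-14). It ranked 55th of the 12335 genes in both. MAPT, the axonal tau protein, was -0.23 to 0.45 in Ctl (median -0.02) and 1.10 to 1.49 in NaB (median 1.41), a rise of 1.35 ± 0.20 (adjusted p = 3.83e-10). With doxycycline it rose by 1.28 ± 0.26 (adjusted p = 7.99e-10).

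The collapsin response mediators, which relay axon guidance signals to the cytoskeleton, lay near 2-fold (DPYSL5) or below it (DPYSL3) where tested. DPYSL5 differed by 0.90 ± 0.14 in NaB (adjusted p = 1.21e-08) and rose by 1.11 ± 0.19 in DoxyNaB (adjusted p = 7.09e-10), while a second tested probe passed in both, at 1.14 ± 0.05 and 1.11 ± 0.21. The DPYSL5 call in DoxyNaB was lost with normexp correction (0.94), median scaling (0.55) and in experiments 2 to 4 alone (0.9984, just under 2-fold). DPYSL3 differed by 0.49 ± 0.16 (adjusted p = 5.88e-07) and 0.41 ± 0.12 (adjusted p = 5.15e-06), without overlap between groups. CRMP1, another of the family, was above background on 1 to 3 arrays of a treatment. GAP43, a growth cone protein, was above background on 0 Ctl, 0 NaB, 3 Doxy and 1 DoxyNaB arrays. Neither was tested.

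The neurofilament genes gave no tested signal. NEFL was well above background on 2 of 24 arrays, INA on 2 and NEFM on 4. The brighter NEFH probe was above background on 11 of 12 arrays of experiments 2 to 4 and on 0 of 12 of the others, with 2 or 3 arrays in every treatment. UCHL1, the neuronal ubiquitin hydrolase PGP9.5, was above background on 0 of 24 arrays. Levels of such dim probes are not free of treatment: over 1559 probes that were above background on no array, the median level was 0.82 higher in NaB than in Ctl and 0.78 higher in DoxyNaB than in Doxy. Per experiment that median difference was 0.72, 2.14 and 1.48 in experiments 2, 3 and 4, and 0.13, 0.08 and 0.19 in experiments 1, 5 and 6. Its part in the higher values of partly dim genes was not tested. In experiments 5 and 6 alone, the changes of SYT11, STMN2, CHGA, RUNDC3A, NCAM1, SYP and NELL2 in NaB were 5.60, 5.99, 3.58, 4.55, 3.12, 2.41 and 1.81. None of these genes was well above background on the Ctl arrays of experiments 5 and 6, so each change was taken from a value near background. In NaB, SYP was not well above background in experiment 6, nor NELL2 in experiment 5.

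**Figure D3:**
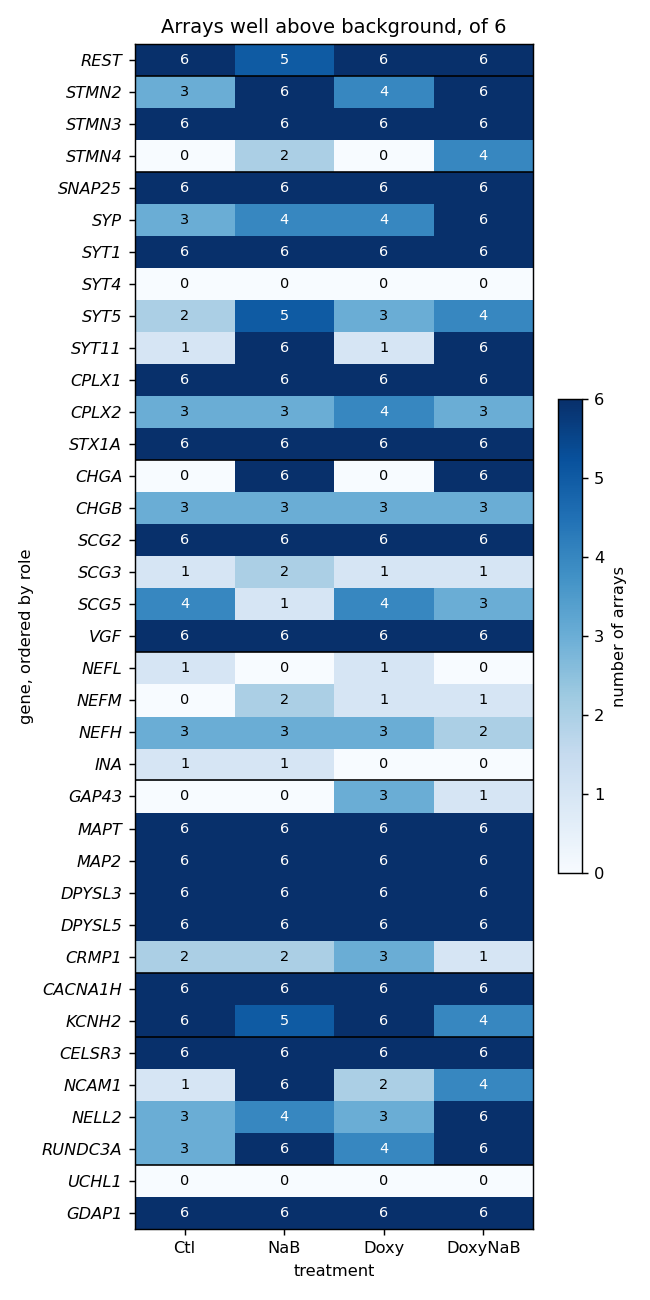
Number of arrays, of 6 per treatment (columns), on which the probe of each of the 37 genes (rows, ordered by role, lines between roles) was well above background. CHGA goes from 0 to 6 arrays with butyrate and SYT11 from 1 to 6, while SYT4 and UCHL1 are at 0 in every treatment.

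CACNA1H, the T-type calcium channel Cav3.2, had levels of -2.72 to -2.01 in Ctl (median -2.59) and of -1.22 to -0.56 in NaB (median -1.05), with no overlap. It rose by 1.52 ± 0.36 (adjusted p = 7.64e-09) and by 1.37 ± 0.40 with doxycycline (adjusted p = 3.52e-08). The potassium channel KCNH2 was read by a pair of probes that disagreed. The brighter one differed by 0.20 ± 0.33 (adjusted p = 0.197) and 0.23 ± 0.41 (adjusted p = 0.133). The sign of these KCNH2 values turned under quantile normalization (-0.97 and -0.54) and median scaling (-0.55 and -0.33), and in NaB also with normexp correction (-0.13). The other gave 0.74 ± 0.52 (adjusted p = 0.0247) and 1.14 ± 1.08 (adjusted p = 0.00144), past the threshold only in DoxyNaB against Doxy.

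CELSR3, a seven-pass cadherin of axon tract formation, had levels of -2.33 to -1.12 in Ctl (median -1.56) and of -0.80 to 0.04 in NaB (median -0.29), which did not overlap. It rose by 1.28 ± 0.21 (adjusted p = 3.93e-09) and by 1.49 ± 0.34 in DoxyNaB (adjusted p = 4.87e-10). GDAP1, a mitochondrial protein of peripheral neurons, rose by 1.24 ± 0.72 (adjusted p = 1.3e-04) and by 1.21 ± 0.62 (adjusted p = 1.68e-04). Quantile normalization gave 0.42 and 0.62, not called. The response in NaB was 1.82 in experiments 2 to 4 and 0.88, not called, in experiments 5 and 6. Without experiment 2 its DoxyNaB change was 0.99, below 2-fold.

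The neural cell adhesion molecule NCAM1 was well above background on 1 Ctl array, 6 NaB arrays, 2 Doxy arrays and 4 DoxyNaB arrays. Levels ran from -7.39 to -5.72 in Ctl (median -6.19) and from -4.09 to -2.63 in NaB (median -3.31). It was higher by 3.02 ± 0.42 (adjusted p = 3.72e-10) and by 2.58 ± 0.74 in DoxyNaB (adjusted p = 3.44e-09), with no overlap. After normexp correction its NaB change was 0.67 and not called. The 2 other NCAM1 probes, each well above background on 2 Ctl and 3 NaB arrays, were not tested. Their mean differences were 1.35 ± 1.01 and 1.00 ± 0.90 in NaB, and 1.40 ± 1.69 and 0.79 ± 1.39 in DoxyNaB, with overlapping levels. RUNDC3A, a binding partner of small GTPases in neurons, went from between -6.20 and -3.28 in Ctl (median -4.99) to between -1.59 and -0.61 in NaB (median -1.07), a difference of 3.79 ± 1.02 (adjusted p = 1.22e-07), and differed by 3.37 ± 1.42 in DoxyNaB (adjusted p = 5.91e-07). After normexp correction the RUNDC3A differences were 1.58 and 1.77, still called, and 3 of 6 Ctl arrays were well above background. NELL2, a secreted neural glycoprotein, was higher by 1.46 ± 0.49 (adjusted p = 2.45e-06) and 1.25 ± 0.53 (adjusted p = 1.6e-05), with overlapping levels. The NELL2 calls were lost under normexp correction (0.23 and 0.85), quantile normalization (0.43 and 0.58), median scaling (0.71 and 0.69) and without the experiment block.

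REST itself did not pass the test in either butyrate comparison. Its levels were -4.09 to -2.19 in Ctl (median -2.50), -4.28 to -0.82 in NaB (median -1.85), -3.75 to -1.92 in Doxy (median -2.53) and -4.12 to -0.35 in DoxyNaB (median -2.85). All treatments overlapped. The REST change was 0.56 ± 0.73 in NaB, higher in 4 of 6 experiments (adjusted p = 0.1), and 0.19 ± 0.92 in DoxyNaB, higher in 2 of 6 (adjusted p = 0.588). Its sign changed with median scaling (-0.19 and -0.37), and in DoxyNaB also with quantile normalization (-0.09). The REST probe is at chr4:57492812-57492871 (NCBI36, plus strand).

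Of 22 genes of the REST complex and its co-repressors, 21 were tested, 0 were called higher and 4 lower in NaB, where 21.0% of all genes tested were higher and 11.5% lower. The median change was -0.14 against 0.17 for all genes tested. CTDSPL and CTDSP1, small phosphatases that act on RNA polymerase II and on REST, fell by 2.48 ± 0.33 (adjusted p = 6.14e-11) and by 1.39 ± 0.09 (adjusted p = 3.53e-13). SMARCA4, the BRG1 chromatin remodeller, fell by 1.12 ± 0.32 (adjusted p = 1e-08). The remaining gene, named after its values were seen, was the histone methyltransferase EHMT1, which fell by 1.11 ± 0.18 in NaB (adjusted p = 3.33e-10) and differed by -0.99 ± 0.20 in DoxyNaB, just under 2-fold. The CoREST scaffold RCOR1 changed by 0.29 ± 0.28 (adjusted p = 0.0135), HDAC1 by 0.02 ± 0.12 (adjusted p = 0.773) and HDAC2 by -0.35 ± 0.10 (adjusted p = 6.1e-05), all below 2-fold.

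Of a further 25 neuronal genes outside the 37, 11 were tested and 4 were above background on every array. Of these 4, the tubulin TUBB3 and the synapsin SYN2 were called higher in NaB, BDNF lower and UNC13A not called, with a median of 0.84, beside 15.5% of genes higher and 11.9% lower. The other 7 passed through a bright treatment, where the filter itself favours a difference, and are not counted. The sodium channel subunit SCN3B was higher by 4.29 ± 0.40 (adjusted p = 6.78e-12). RBFOX3, the neuronal splicing factor NeuN, and CALB1, the calcium buffer calbindin, were well above background on 0 of 6 Ctl arrays. Set against the lowest signal well above background on each Ctl array, they were 4.68-fold and 6.02-fold higher in NaB. The limma test used their measured levels instead (adjusted p = 2.62e-11 and 1.89e-08). The neurotrophin BDNF fell by 1.40 ± 0.41 (adjusted p = 6.82e-08).

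Relatives of the 37 genes that are expressed in most tissues were examined in the same way, 18 of 19 being tested and 17 above background on every array. Of these 17, 1 was called higher and 1 lower in NaB, beside 15.5% and 11.9% of genes above background on every array. Their median was 0.18, against 0.07 for all such genes. GDAP2 was higher by 1.02 ± 0.12 (adjusted p = 2.3e-09), as was SNAP29, which passed through a bright treatment, by 2.06 ± 0.57 (adjusted p = 1.19e-08), while the endosomal SNARE VAMP8 fell by 1.43 ± 0.17 (adjusted p = 1.24e-11). The difference between these relatives and the neuronal genes was not tested.

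**Figure D4:**
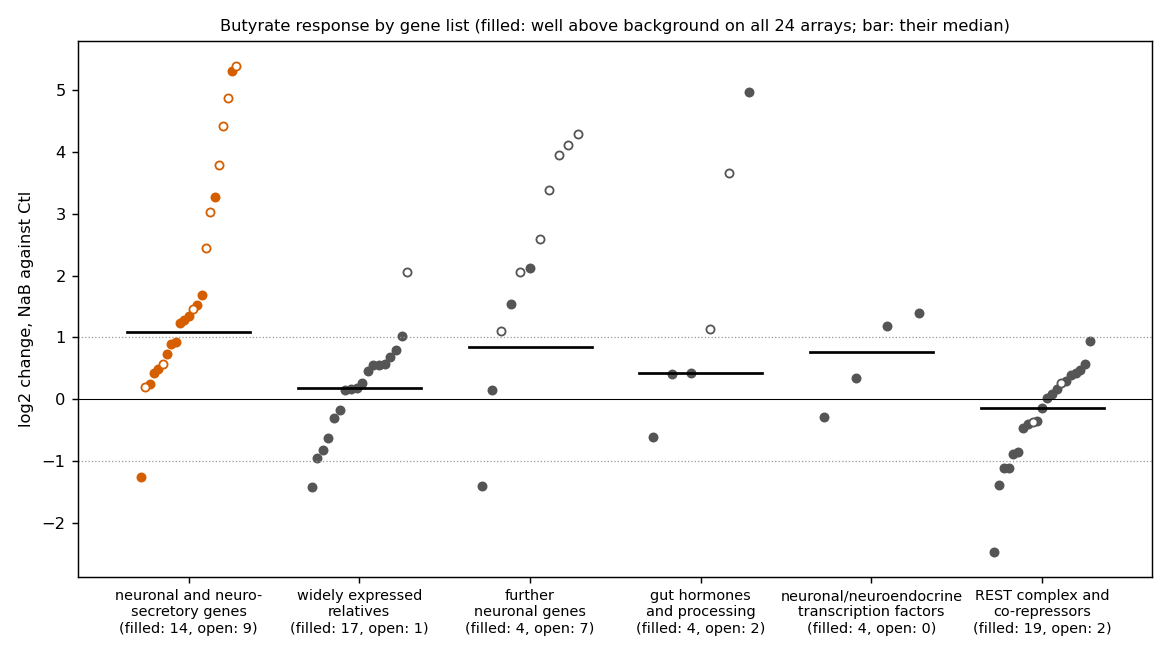
Log2 change in NaB against Ctl (vertical axis) of each tested gene in 6 gene lists, with filled points for genes well above background on all 24 arrays, open points for genes that passed through a bright treatment, bars for the medians of the filled points and dotted lines at 2-fold. The 14 filled neuronal and neurosecretory genes have a median of 1.08, the 17 widely expressed relatives 0.18, the 4 further neuronal genes 0.84 and the REST complex -0.14.

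Markers of other cells moved with these genes in part. The epithelial markers EPCAM, CDH1, KRT8, KRT18, KRT19 and CDX2 were above background throughout, and of 8 such markers VIL1 and LGR5 were not tested. In NaB 0 were called higher and 1 lower, with a median of 0.38, beside 15.5% and 11.9% of genes above background on every array. EPCAM fell by 1.45 ± 0.40 (adjusted p = 3.62e-05), while CDH1, KRT19, KRT8, KRT18 and CDX2 differed by 0.99, 0.97, 0.63, 0.12 and -0.67, all below 2-fold. Of 16 markers of glia, fibroblasts, leukocytes and endothelium, 6 were tested. Among these, COL1A1 rose by 1.09, CD14 was higher by 1.35 and VWF by 2.77 in NaB, MBP fell by 1.43, and CDH5 differed by 0.45 and was not called. The 2 leukocyte and 2 endothelial markers tested, CD14, VWF and CDH5 among them, passed through a bright treatment. There the filter itself favours a difference, so they are not counted. The summed level of the 16 markers, on the log2 scale, ran from 0.44 to 1.13 in Ctl, 0.83 to 1.85 in NaB, 0.42 to 1.21 in Doxy and 0.84 to 2.21 in DoxyNaB. COL3A1 was well above background on 0 of 24 arrays, SOX10 on 3 and DCN on 7, and PTPRC, CD3E and PECAM1 on 11 to 15. Their part in the results was not tested.

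Doxy against Ctl gave 0 calls by limma among the 23 tested genes, beside 0.0924% of all genes. At an unadjusted p under 0.05 there were 6 of the 23, beside 13.3% of all genes. DoxyNaB against NaB gave 0 calls by limma, beside 0.403% of genes, with 5 at an unadjusted p under 0.05, beside 16.1%. In that comparison SNAP25 was lower by a difference of -0.47 ± 0.20 in 6 of 6 experiments (adjusted p = 1.06e-04), below 2-fold and without overlap. The butyrate response with and without doxycycline differed for 0 of the 23 genes at an adjusted p under 0.01, beside 1.36% of all genes, with 3 at an unadjusted p under 0.05 (SNAP25, SCG2 and CPLX1), beside 12.5%. The methods' paired t-test with adjustment also gave 0 in these 3 comparisons. DN-Tcf4 protein was described in the study as scarce with doxycycline alone and abundant with both agents.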

How the data were processed

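RNA from 24 cultures was hybridised in 1 colour to Agilent human arrays. The deposited files hold, per the file headers, spot intensities written by Agilent Feature Extraction 9.5.3.1, with background and spatial trend removed within an array but no scaling between arrays, together with flags and NCBI36 probe coordinates (other deposited columns, such as names and flags, were used as given). The methods name GeneSpring GX and a paired t-test. Control and outlier-flagged spots (359 to 795 per array) were left out, spots of a probe were averaged, and the log2 processed intensity was taken relative to the 75th percentile of the array (signal 380.2 to 1323). The 18984 probes well above background on every array of at least 1 treatment, for 15155 genes, were fitted in R 4.3.3 with limma 3.58.1, using all 24 arrays, 4 treatments and the experiment as a block, and Benjamini-Hochberg adjustment over all of them. A gene was represented by its tested probe with the highest mean level, and the interaction was called without a fold threshold. The fit was tested on simulated data. Plots were made with matplotlib 3.10.9.

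Experiments were paired because the methods use a paired test and experiments 2 to 6 each had 1 slide. Levels centred on their treatment correlated above 0.1 within an experiment, except NaB with DoxyNaB in experiment 3 (r = -0.22). Experiment 1 was on 2 slides, where butyrate and slide cannot be told apart. The members, the other lists and the tests were chosen with earlier results of these data known. All 37 members are named, and of other lists up to 3 called genes with the highest and 3 with the lowest change in NaB, and RCOR1, HDAC1 and HDAC2. TUBB3, SYN2, UNC13A and the epithelial markers other than EPCAM were named after their values were seen. RBFOX3 was matched by accession. Values of some genes on the other lists are not reported here. Signal over background limits precision. Promoters came from RefSeq (GRCh38.p14) and were not mixed with NCBI36 coordinates. Scalings, filters, blocks, thresholds, probe choices and left-out arrays or experiments were tried as alternatives.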

Additional observations from a re-analysis of the deposited data

Results flagged for a closer look

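Levels of the 23 tested genes were looked over for arrays that stand apart from the other 5 of their treatment, in 92 groups of 6. In 6 groups the gap of the extreme array to its nearest neighbour exceeded the 95% critical value of Dixon's test, and chance flags about 1 group in 20. In Ctl, the experiment 1 array was high for CPLX1 (-0.30, against -1.22 to -0.98 on the others) and for MAPT (0.45, against -0.23 to -0.0048), and the experiment 4 array was low for MAP2 (-1.76, against -1.46 to -1.36). In Doxy, the experiment 4 array was low for MAP2 (-1.82, against -1.34 to -1.08) and the experiment 6 array was low for CACNA1H (-2.49, against -2.20 to -2.06). In DoxyNaB, the experiment 2 array, which had the highest negative control signal, was low for MAPT (1.03, against 1.53 to 1.66).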

How the results depend on the processing

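Under 24 alternatives, 698 of the 754 recomputed changes of called genes kept their direction and their call, 56 kept the direction only, and 0 reversed. Alternatives that changed only a threshold reused the main changes, so they could not reverse one. The looser thresholds could not lose a call either. With the filter on all 24 arrays, the 7 called genes that passed through a bright treatment dropped out, so those losses are not among the 56. The count of genes called in NaB against Ctl (15) was 9 with normexp, 9 with median scaling after a floor of 5, 8 with the filter on all 24 arrays, 9 at a fold over 3, 18 at a fold over 1.5 and 20 with no filter. That in DoxyNaB against Doxy (17) was 9 with median scaling, 10 with the filter on all 24 arrays, 8 at a fold over 3, 18 at a fold over 1.5 and 20 with no filter. The counts of 15 and 17, and the recomputed changes, include the 7 genes that passed through a bright treatment. In the main fit 21.0% of all genes tested were higher and 11.5% lower in NaB, and 18.7% and 12.5% in DoxyNaB. These shares are not given for the alternatives, so the counts show only their dependence on the processing. Without the experiment as a block (no replicate block) the counts were 13 and 15, SYP and NELL2 being lost in both. Leaving out each experiment gave 15 to 15 and 16 to 17. Doxy against Ctl and DoxyNaB against NaB stayed at 0, also with each experiment left out (0 to 0). The interaction count rose from 0 to 1 (CPLX1) with the methods' paired t-test and an unadjusted p, and was 0 to 0 with an experiment left out. Median scaling moved the median of all tested probes from 0.17 to -0.58 in NaB and from 0.10 to -0.46 in DoxyNaB and lowered STX1A, MAPT, CACNA1H and CELSR3 in NaB to 0.93, 0.60, 0.77 and 0.53, below the threshold. CPLX1, DPYSL3, SCG2, SYT1, KCNH2 and REST, not called in NaB, changed sign under it there (-0.03, -0.26, -0.32, -0.50, -0.55 and -0.19). Normexp lowered dim genes most, in NaB to 1.15 for CHGA and 1.85 for SYT11, both still called. SYP, NCAM1 and NELL2 fell to 0.71, 0.67 and 0.23 there and lost their calls. Signal over background limits the 14 untested genes. With no filter STMN4, SYT5, SCG3, NEFM and UCHL1 were called in NaB, and STMN4, SYT5 and UCHL1 in DoxyNaB; probes above background on no array were higher in NaB too, by a median of 0.82.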

Other observations

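Beside the 37 genes, gut hormones and the enzymes that process them were read from 22 genes, of which 6 were tested and 4 were above background on every array. Of these 4, 1 was called higher and 0 lower in NaB, beside 15.5% and 11.9% of genes. GAST, gastrin, went from a mean level of -2.18 ± 0.46 in Ctl to 2.79 ± 0.82 in NaB, a rise of 4.98 ± 0.53 (adjusted p = 4.3e-14), and rose by 4.64 ± 0.41 in DoxyNaB (adjusted p = 9.28e-14). NTS, neurotensin, was higher by 3.66 ± 1.40 (adjusted p = 1.12e-06), with 1 of 6 Ctl arrays well above background, and CCK, cholecystokinin, by 1.13 ± 0.60 in NaB (adjusted p = 0.00331) and 0.25 ± 1.08 in DoxyNaB (adjusted p = 0.487). The difference between the CCK responses was 0.88 ± 1.24 and did not pass the interaction test (adjusted p = 0.45).

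Of 22 neuronal and neuroendocrine transcription factors, 18 were not tested, among them NEUROD1 and INSM1. PAX6 was higher by 1.39 ± 0.98 in NaB (adjusted p = 0.00217) and not called in DoxyNaB (0.83 ± 0.98, adjusted p = 0.047), and HES6 rose by 1.18 ± 0.20 (adjusted p = 2.45e-09) and 1.02 ± 0.19 (adjusted p = 1.32e-08).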
